A study of Homo sapiens with 6 samples.

Results

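Translesion synthesis genes were followed as a set of 6 genes, chosen by symbol: POLH, POLI, POLK, REV1, REV3L and RAD18. All 6 symbols matched a single gene each among the 61806 genes of the deposited table, and all 6 had enough counts to be tested. Wild-type HFF cells, a banked culture of human foreskin fibroblasts, had received a UVB dose of 40 mJ per cm2. UVB is ultraviolet B, the part of sunlight that crosslinks neighbouring bases in DNA. The UVB + sauchinone group (3 libraries) received 10 µM sauchinone, a plant lignan, and the UVB group (3 libraries) received vehicle, both for 48 h. Irradiation was common to both groups, unirradiated cells were not analysed here, and the labels do not say whether the libraries came from cells that also had the compound before irradiation.

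Replicative DNA polymerases stall at bases damaged by ultraviolet light. RAD18, a ubiquitin ligase that works with the conjugating enzymes UBE2A and UBE2B, then attaches ubiquitin to the sliding clamp PCNA, which helps specialised polymerases take over at the lesion. POLH encodes polymerase eta, which copies past cyclobutane pyrimidine dimers and is lost in the variant form of xeroderma pigmentosum. POLI and POLK encode the related polymerases iota and kappa, REV1 encodes a deoxycytidyl transferase that also holds the other polymerases together, and REV3L encodes the catalytic subunit of polymerase zeta, which extends the new strand beyond the lesion.

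With sauchinone, REV3L and RAD18 had 2.30-fold and 1.86-fold lower levels, POLK, POLI and REV1 fell by smaller amounts, and POLH, the most abundant of the 6, had the same mean level to within 1 CPM (the count scaled to a common library size). In edgeR's quasi-likelihood test across 15704 genes, with Benjamini-Hochberg adjusted p under 0.05 as the threshold, 5 of the 6 genes were lower and none was higher. Over all genes tested, 24.9% were lower and 24.7% were higher by the same rule, and 49.6% changed in either direction. DESeq2 and limma-voom also called 5 lower and none higher. The count was 3, made up of REV3L, RAD18 and POLK, without UVB + sauchinone replicate 1, at a minimum fold change of 1.2, or after removal of a trend with exonic size or GC content, where 21.1%, 16.7%, 24.1% and 25.5% of all genes tested were lower in that order. The median log2 fold change of the 6 genes was -0.46, against 0.0071 over all genes tested. RNA from whole cultures was measured, so fewer cells carrying a transcript and less of it per cell cannot be told apart.

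Total counts ran from 20984851 to 23076388 per library, and 3 counts in a library corresponded to 0.129 to 0.144 CPM. All libraries carry the same batch label. The labels do not state that replicates were grown separately, and the p-values therefore reflect only the variation among these libraries, which may be technical. All 10 fibroblast markers examined were above 1 CPM in every library, with a summed level of 13709 to 14125 CPM in UVB + sauchinone and 18963 to 20593 CPM in UVB. Of 6 keratinocyte markers, KRT5, KRT1 and DSG3 had no count in any library, and KRT10 made up most of a summed level of 13.4 to 14.3 CPM in UVB + sauchinone and 11.2 to 11.9 CPM in UVB. Melanocyte, endothelial and leukocyte lists of 4 markers each summed to at most 1.52, 0.741 and 3.51 CPM in UVB + sauchinone and at most 2.35, 0.667 and 3.53 CPM in UVB, and DCT, CDH5, KDR and CD3E were at 0 throughout. The leukocyte marker CD14 was above 1 CPM in every library, at 1.65 to 2.90 CPM. MLANA, PMEL and CD68 reached at most 1.49, 1.22 and 1.29 CPM in a library. The UVB libraries differed from each other in a way that depended on gene span. Genes were split by genomic span into 5 groups of equal size. The median log2 ratio of UVB replicate 3 to UVB replicates 1 and 2 was 0.096 in the longest group and -0.088 in the shortest. That of UVB replicate 2 to UVB replicates 1 and 3 went the other way, at -0.072 and 0.078. UVB replicate 3 was the highest UVB library in 5 of the 6 genes, against 38.2% of all genes tested and 55.2% of genes in the longest group.

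RAD18 (ENSG00000070950, chromosome 3 at 8775402 to 8963773, minus strand, GRCh38) had 23.9, 25.5 and 22.8 CPM in UVB + sauchinone replicates 1, 2 and 3, against 45.9, 40.4 and 48.4 CPM in UVB replicates 1, 2 and 3. Every library with sauchinone lay far below every UVB library. The mean was 24.1 ± 1.35 CPM in UVB + sauchinone and 44.9 ± 4.08 CPM in UVB (SD, n = 3 each), equal to a log2 fold change of -0.90 ± 0.098 (SE; edgeR adjusted p = 9.23e-08). Without UVB replicate 3 the fall was 0.84 on the log2 scale. RAD18 spans 188 kb, and removing a smooth trend of counts with span reduced its log2 fold change to -0.37 (edgeR adjusted p = 0.0024).

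REV3L (ENSG00000009413, chromosome 6 at 111299028 to 111483715, minus strand) had 40.4, 51.9 and 43.4 CPM in UVB + sauchinone replicates 1, 2 and 3, against 96.7, 85.6 and 130 CPM in UVB replicates 1, 2 and 3. The groups did not overlap, and UVB replicate 3 was the highest library of all. The mean was 45.2 ± 5.96 CPM in UVB + sauchinone and 104 ± 23.2 CPM in UVB, so that the log2 fold change was -1.20 ± 0.12 (edgeR adjusted p = 2.98e-08). Only 5.39% of all genes tested had a lower log2 fold change. Without UVB replicate 3 the value was -1.01, and it was -0.68 after the trend with span was removed, REV3L spanning 185 kb (edgeR adjusted p = 3.20e-05).

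REV1 (ENSG00000135945, chromosome 2 at 99400475 to 99490035, minus strand) had 22.4, 23.9 and 23.7 CPM in UVB + sauchinone replicates 1, 2 and 3, against 29.5, 25.9 and 30.7 CPM in UVB replicates 1, 2 and 3. The groups did not overlap, but the highest library with sauchinone and the lowest UVB library were close. The log2 fold change was -0.30 ± 0.10 (edgeR adjusted p = 0.017), the smallest of the 5 that passed. REV1 no longer passed in edgeR once UVB + sauchinone replicate 1 (-0.27, adjusted p = 0.082) or UVB replicate 1 (-0.28, adjusted p = 0.069) was left out, or after removal of the trend with span (-0.15, adjusted p = 0.20). Its adjusted p in edgeR, DESeq2 or limma was between 0.0043 and 0.32 in the 18 alternatives.

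POLH (ENSG00000170734, chromosome 6 at 43576185 to 43620523, plus strand) had 121, 133 and 124 CPM in UVB + sauchinone replicates 1, 2 and 3, against 128, 129 and 121 CPM in UVB replicates 1, 2 and 3. The libraries of both groups were interleaved. The mean was 126 ± 5.95 CPM in UVB + sauchinone and 126 ± 4.62 CPM in UVB, with a log2 fold change of -0.0020 ± 0.075 and a 95% interval of -0.16 to 0.15 (edgeR adjusted p = 0.99). The sign of this value turned in 7 of the 18 alternatives, and POLH passed in none of them. Its counts were among the highest of the set, 2679 to 3069 per library with sauchinone and 2666 to 2791 in UVB, so the interval is narrow, but a change within it would not have been detected.

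POLK (ENSG00000122008, chromosome 5 at 75511756 to 75601144, plus strand) had 38.9, 38.7 and 37.6 CPM in UVB + sauchinone replicates 1, 2 and 3, against 49.6, 43.3 and 66.3 CPM in UVB replicates 1, 2 and 3. Libraries with sauchinone were tightly grouped below all UVB libraries, which were spread more widely. The log2 fold change was -0.47 ± 0.12 (edgeR adjusted p = 0.0018). Its size depended on which UVB libraries were kept. It was -0.28 without UVB replicate 3 (edgeR adjusted p = 0.0088) and -0.60 without UVB replicate 2 (edgeR adjusted p = 7.7e-06). Removing a trend with the GC content of transcripts left -0.18 (edgeR adjusted p = 0.047). POLK transcripts are poor in G and C, at 34.7% in the longest annotated transcript, a value lower in only 1.52% of tested genes. Removing the trend with span left -0.32, a value within 1.5 times of the first.

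POLI (ENSG00000101751, chromosome 18 at 54269517 to 54321266, plus strand) had 16.1, 22.2 and 18.8 CPM in UVB + sauchinone replicates 1, 2 and 3, against 24.8, 20.7 and 32.9 CPM in UVB replicates 1, 2 and 3. The groups overlapped, since UVB + sauchinone replicate 2 lay above UVB replicate 2. The log2 fold change was -0.46 ± 0.14 (edgeR adjusted p = 0.0096). POLI no longer passed in edgeR once UVB replicate 3 (-0.26, adjusted p = 0.079) or UVB + sauchinone replicate 1 (-0.35, adjusted p = 0.077) was left out. The same held after removal of a trend with exonic size (-0.31, edgeR adjusted p = 0.052) or GC content (-0.20, edgeR adjusted p = 0.11). Its adjusted p in edgeR, DESeq2 or limma was between 0.00015 and 0.11 in the 18 alternatives.

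The libraries of the groups did not overlap in 4 of the 6 genes, all lower with sauchinone, against 28.5% of all genes tested that were lower without overlap. These 4 genes, REV3L, RAD18, POLK and REV1, are all in the longest group by span. In that group 58.5% of genes passed as lower in edgeR, against 24.9% of all genes tested. The plot of levels by library shows the separation of REV3L and RAD18 beside the interleaved values of POLH.

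**Figure D1:**
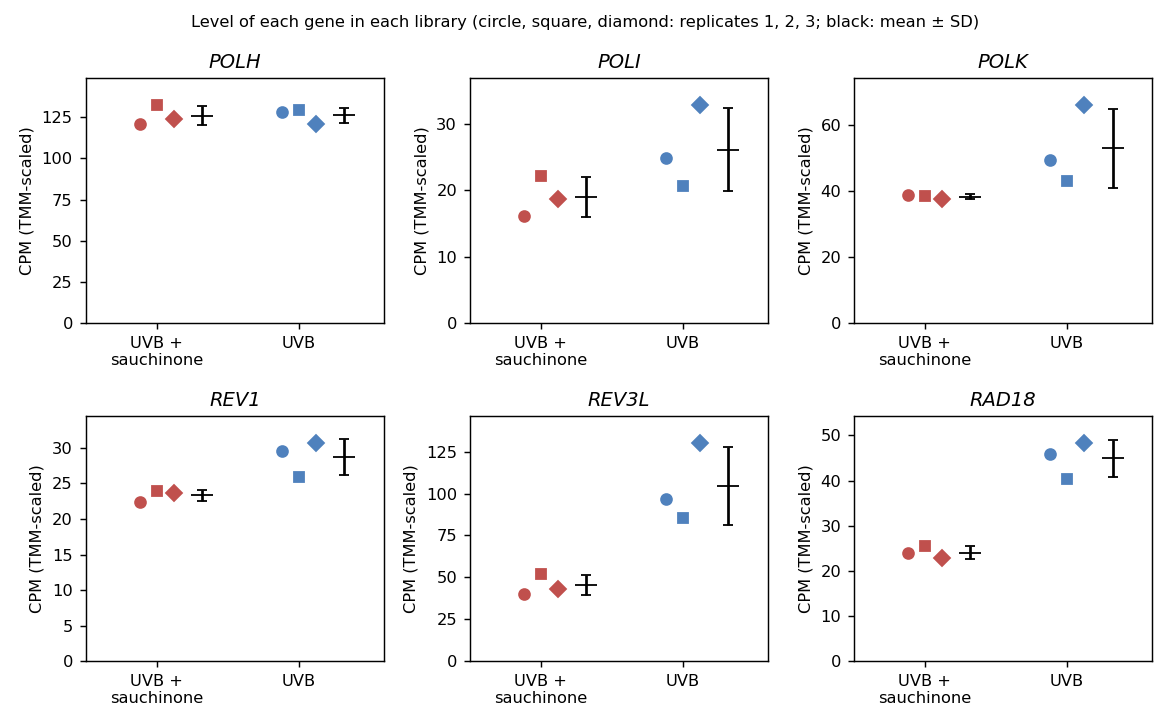
Level of each gene in CPM in the 3 UVB + sauchinone libraries (red) and the 3 UVB libraries (blue), with symbols for replicates and the mean ± SD in black. REV3L at 40.4 to 51.9 CPM with sauchinone and 85.6 to 130 CPM in UVB is the widest separation, POLH lies between 121 and 133 CPM in all libraries, and UVB replicate 3 (diamond) is the highest UVB library in 5 of the 6 genes.

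**Figure D2:**
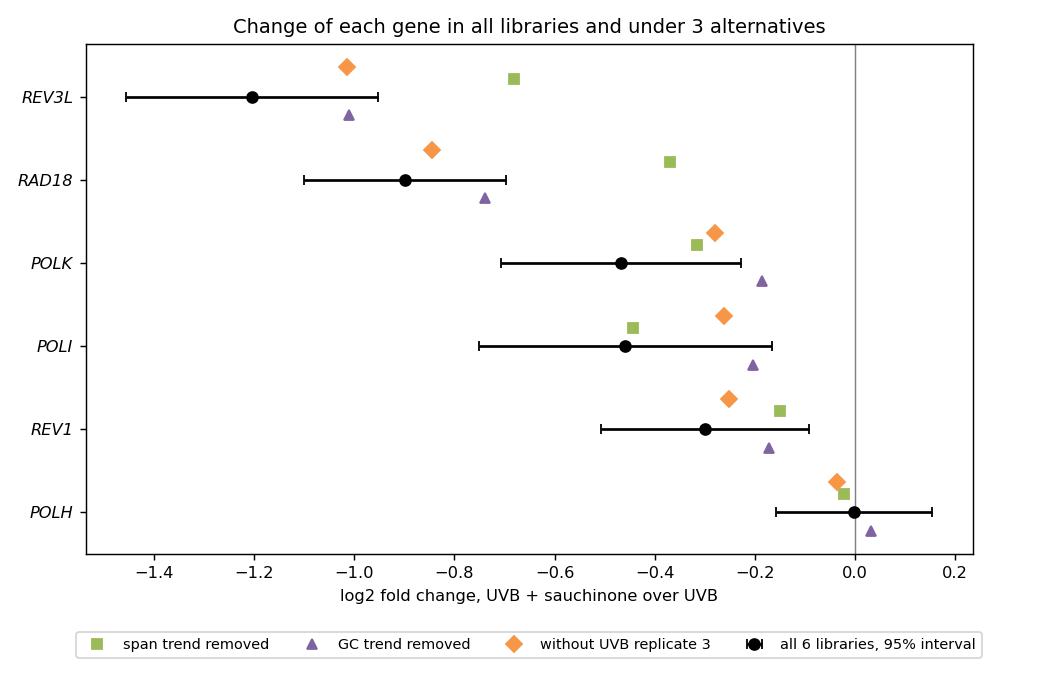
Log2 fold change of UVB + sauchinone over UVB for each gene (black, with its 95% interval) and under 3 alternatives (coloured). REV3L and RAD18 are below 0 in each, with RAD18 at -0.37 after removal of the trend with span, while POLK and POLI move towards 0 without UVB replicate 3, to -0.28 and -0.26.

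Genomic span is a measured property that moved with the fold changes of all genes. Of the longest group, from 88.7 to 2242 kb, 58.5% were lower with sauchinone, and the median log2 fold change was -0.44. In the next group, 40.0 to 88.7 kb, 28.6% were lower and the median was -0.069. RAD18, REV3L, REV1 and POLK belonged to the longest group, the last pair only just, at 89.6 and 89.4 kb, and POLI and POLH belonged to the next, at 51.8 and 44.3 kb. Within its own group REV3L was among the lower values, since 16.3% of genes there had a lower log2 fold change, and RAD18 had 26.0% of genes below it. POLK and REV1 lay in the middle of that group, with 48.5% and 59.9% of genes below them. In the next group POLI lay among the lower values and POLH near the middle, with 55.9% of genes below it. The part that span plays in the changes of the 6 genes was not tested beyond the fit with that trend removed, in which 4 of the 6 genes were lower and none was higher, against 23.5% of all genes that were lower in that fit.

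**Figure D3:**
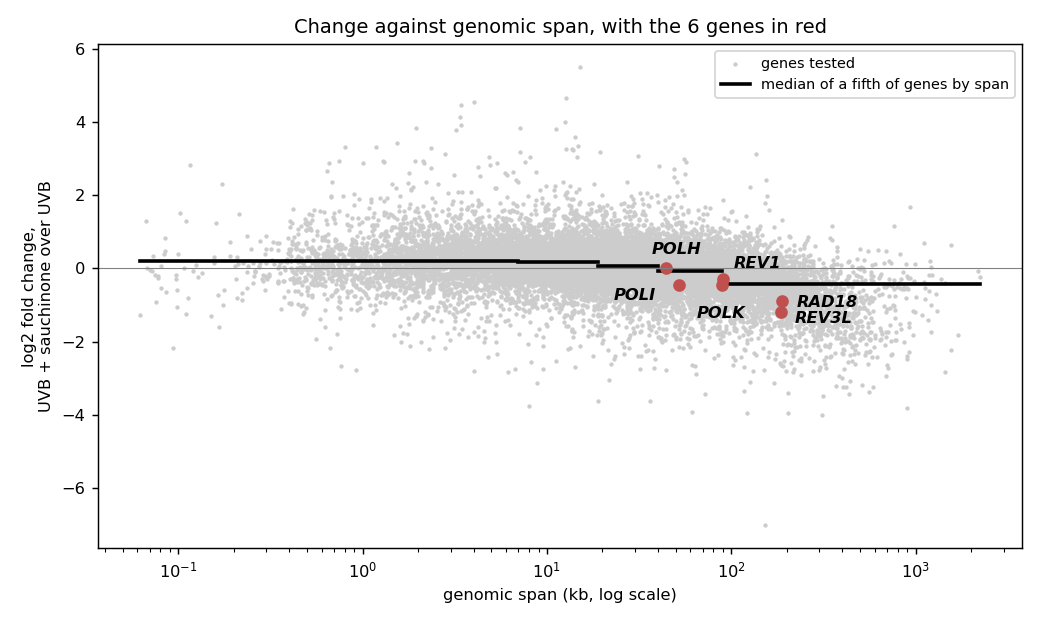
Log2 fold change of UVB + sauchinone over UVB against genomic span in kb on a log scale for all 15704 genes tested (grey), with the median of each of 5 equal groups by span (black lines) and the 6 genes in red. The median is -0.44 in the longest group, and REV3L and RAD18, at -1.20 and -0.90, lie below it while POLK and REV1 lie close to it.

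Levels of different genes were compared per length, in the deposited FPKM (the count scaled to the exonic size of the gene and the depth of the library). In UVB + sauchinone the order was POLH at 15.3 ± 0.57 FPKM, POLK at 4.27 ± 0.081, REV3L at 3.69 ± 0.45, RAD18 at 3.49 ± 0.17, REV1 at 3.04 ± 0.081 and POLI at 2.06 ± 0.31 FPKM (SD, n = 3). In UVB the order was POLH at 14.8 ± 0.56 FPKM, REV3L at 8.25 ± 1.84, RAD18 at 6.32 ± 0.60, POLK at 5.73 ± 1.28, REV1 at 3.63 ± 0.33 and POLI at 2.74 ± 0.65 FPKM. With sauchinone the ranges of REV3L and RAD18 over the libraries overlapped. In UVB this held for REV3L and RAD18, REV3L and POLK, RAD18 and POLK, and REV1 and POLI. Within every UVB library, though, REV3L was above RAD18 and POLK, and REV1 was above POLI. The order of RAD18 and POLK in UVB, and of REV3L and RAD18 with sauchinone, differed between libraries. POLH was above every other gene of the set in all 6 libraries. It made up 48.2%, 47.5% and 48.2% of the summed FPKM of the 6 genes in UVB + sauchinone replicates 1, 2 and 3, and 36.9%, 40.2% and 31.0% in UVB replicates 1, 2 and 3. REV3L made up 11.6 ± 0.87% in UVB + sauchinone and 19.7 ± 2.44% in UVB.

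Ratios within a library put the genes against each other and against their partners. The ratio of POLH to REV3L in FPKM was 4.45, 3.79 and 4.25 in UVB + sauchinone replicates 1, 2 and 3, and 1.97, 2.24 and 1.38 in UVB replicates 1, 2 and 3. POLH stood higher relative to REV3L in every library with sauchinone than in any UVB library. The ratio of POLH to POLK was 3.57 ± 0.17 in UVB + sauchinone and 2.68 ± 0.64 in UVB. MAD2L2 encodes REV7, the partner of REV3L in polymerase zeta. The ratio of REV3L to MAD2L2 was 1.39 ± 0.20 in UVB + sauchinone and 4.34 ± 1.97 in UVB, where UVB replicate 3 had the highest value, 6.60. The ratio of RAD18 to its partner UBE2A was 0.097 ± 0.0041 in UVB + sauchinone and 0.23 ± 0.023 in UVB, and that of RAD18 to its substrate PCNA was 0.019 ± 0.00098 in UVB + sauchinone and 0.058 ± 0.0052 in UVB. In each of these 5 ratios the groups did not overlap. The exact two-sided permutation test gave p = 0.1 for each and an adjusted p of 0.1 over the 5, which is the smallest that 3 libraries against 3 allow. These ratios rest on the same counts as the single-gene results, in genes chosen with earlier results known, and add no separate support.

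A list of 30 other genes of DNA damage tolerance held clamp, ubiquitin and accessory factors and further polymerase genes, and all were tested. Of these, 11 were lower, 9 were higher and 10 did not pass in the same edgeR fit, with a median log2 fold change of -0.048. The shares over all genes tested were 24.9% lower and 24.7% higher. PCNA, the clamp that RAD18 modifies, rose by 0.72 ± 0.080 on the log2 scale (edgeR adjusted p = 1.16e-07). It had 255, 288 and 232 CPM in UVB + sauchinone replicates 1, 2 and 3, against 162, 153 and 153.5 CPM in UVB replicates 1, 2 and 3. UBE2A rose by 0.32 ± 0.072 (edgeR adjusted p = 0.00075), while UBE2B, the gene of its close relative, had 0.034 ± 0.079 and did not pass (95% interval of -0.13 to 0.20). UBE2A no longer passed at a minimum fold change of 1.2 (edgeR adjusted p = 0.19), and UBE2B passed as higher once the GC trend was taken out (0.21, edgeR adjusted p = 0.0081). The difference between UBE2A and UBE2B was not tested.

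Among the partners of REV3L in polymerase zeta, POLD2 was higher, at 0.33 ± 0.095 (edgeR adjusted p = 0.0055). POLD2 no longer passed after removal of a trend with span (0.11, edgeR adjusted p = 0.30) or GC content (0.12, edgeR adjusted p = 0.18). The same held at a minimum fold change of 1.2 (edgeR adjusted p = 0.20). MAD2L2 had 0.35 ± 0.14 (edgeR adjusted p = 0.040). Without UVB replicate 3, the lowest library for this gene at 8.61 CPM, MAD2L2 was at 0.19 (edgeR adjusted p = 0.23), and in the 18 alternatives its adjusted p was between 0.014 and 0.58. POLD3 had -0.15 ± 0.11 and did not pass (edgeR adjusted p = 0.28). After removal of the trend with its span of 175 kb it was at 0.33 (edgeR adjusted p = 0.018).

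The largest falls in the list belonged to ZRANB3, a DNA translocase gene that binds ubiquitinated PCNA, at -2.04 ± 0.27, and to POLQ, the gene of the end-joining polymerase theta, at -1.35 ± 0.18. ZRANB3 had 0.859, 0.864 and 0.643 CPM in UVB + sauchinone replicates 1, 2 and 3, against 3.37, 3.01 and 3.40 CPM in UVB replicates 1, 2 and 3. Its span of 394 kb is the longest of the list, and its log2 fold change was -1.10 after the trend with span was removed. ATAD5, which unloads PCNA and helps to remove its ubiquitin, fell by 0.81 ± 0.20, PCLAF, a PCNA-binding factor, by 0.80 ± 0.15, and DTL, a substrate receptor of a PCNA-dependent ubiquitin ligase, by 0.70 ± 0.13. HLTF, a ubiquitin ligase and fork remodelling factor that extends ubiquitin chains on PCNA, fell by 0.42 ± 0.11 (edgeR adjusted p = 0.0022). HLTF no longer passed once the GC trend was taken out (-0.17, edgeR adjusted p = 0.080) or at a minimum fold change of 1.2 (edgeR adjusted p = 0.070).

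**Figure D4:**
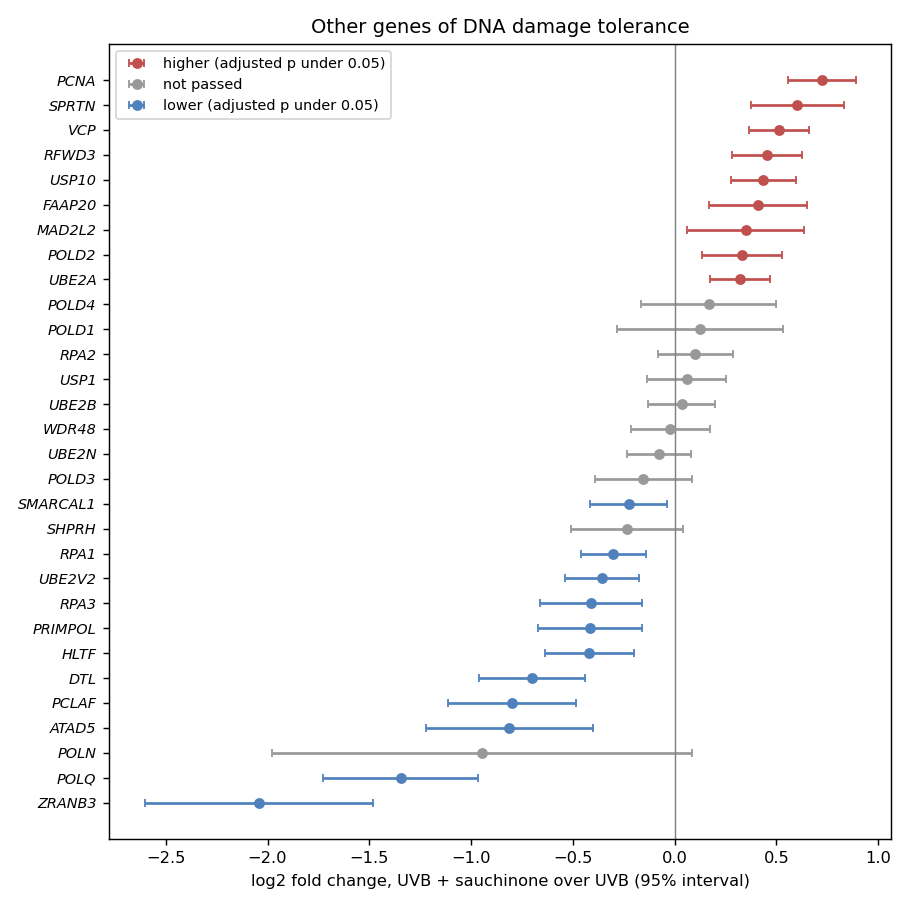
Log2 fold change of UVB + sauchinone over UVB with its 95% interval for the 30 other genes of DNA damage tolerance, ordered by value, with genes that passed as higher in red, as lower in blue and those that did not pass in grey. PCNA at 0.72 is the highest and ZRANB3 at -2.04 the lowest.

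Each of the 6 genes was set beside the 35 others of the set and the list, by the root mean square difference in log2 CPM over the 6 libraries after centring on the UVB mean. The patterns of RAD18 and POLQ were equally near to REV3L to the digits given, at 0.25, and the nearest to RAD18 was that of ATAD5, at 0.15, ahead of DTL at 0.24. POLH was nearest to UBE2N, a conjugating enzyme for chains on PCNA that did not pass (-0.075 ± 0.076), at a difference of 0.065. POLI was about as near to HLTF, at 0.13, as to POLK, at 0.14, and POLK about as near to HLTF, at 0.12, as to UBE2V2, at 0.13. REV1 was nearest to UBE2V2, the partner of UBE2N, at 0.063. UBE2V2 fell by 0.36 ± 0.087 (edgeR adjusted p = 0.0016). Like HLTF, it no longer passed once the GC trend was taken out (-0.082, edgeR adjusted p = 0.30) or at a minimum fold change of 1.2 (edgeR adjusted p = 0.13).

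Promoter windows are shown for the pair that fell most and for POLH, which did not pass, so that their sequence can be compared. They run from 250 bases before to 50 bases after the RefSeq start on GRCh38.p14, and all 6 genes matched, REV3L with 2 starts, of which the start nearer to the end of the deposited gene is shown. The RAD18 window lies wholly within the deposited gene, which ends at 8963773, so it is not at the start of the gene as counted. Capitals mark the GC box (GGGCGG), the NRF1 motif (GCGCANGCG) and the ETS motif (CGGAAGT) on either strand.
RAD18 (chr3:8963423-8963722, minus strand): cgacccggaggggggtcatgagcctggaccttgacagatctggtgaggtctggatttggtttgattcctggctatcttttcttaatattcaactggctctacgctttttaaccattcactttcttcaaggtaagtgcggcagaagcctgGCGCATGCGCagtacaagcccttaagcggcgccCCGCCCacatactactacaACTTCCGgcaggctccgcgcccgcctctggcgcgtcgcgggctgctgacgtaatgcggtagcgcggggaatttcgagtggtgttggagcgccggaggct
REV3L (chr6:111483662-111483961, minus strand): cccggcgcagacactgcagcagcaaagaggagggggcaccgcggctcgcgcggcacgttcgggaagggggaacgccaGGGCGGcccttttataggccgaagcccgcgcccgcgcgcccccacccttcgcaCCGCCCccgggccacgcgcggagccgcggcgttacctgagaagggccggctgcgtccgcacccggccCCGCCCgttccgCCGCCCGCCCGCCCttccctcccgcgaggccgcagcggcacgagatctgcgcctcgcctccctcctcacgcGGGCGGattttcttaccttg
POLH (chr6:43575935-43576234, plus strand): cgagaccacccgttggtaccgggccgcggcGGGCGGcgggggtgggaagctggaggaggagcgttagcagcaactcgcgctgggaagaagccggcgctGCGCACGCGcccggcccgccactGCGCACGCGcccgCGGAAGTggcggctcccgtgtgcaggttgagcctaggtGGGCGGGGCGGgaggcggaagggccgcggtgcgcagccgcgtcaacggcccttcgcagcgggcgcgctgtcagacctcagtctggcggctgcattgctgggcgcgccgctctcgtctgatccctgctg
The windows of RAD18 and POLH both held the NRF1 and ETS motifs, which occur in 7.52% and 6.83% of 35114 windows of this length, and the shown REV3L window held neither. Of the windows not shown, that of POLI also held both motifs and that of REV1 the NRF1 motif. GC boxes, present in 45.0% of windows, numbered 1 in RAD18, 7 in REV3L and 3 in POLH, and some of those in REV3L and in POLH overlapped. The GC content was 57.7% in RAD18, 75.7% in REV3L and 74.7% in POLH, against a median of 58.7%. The p53 half-site of 10 bases (RRRCWWGYYY), the AP-1 motif (TGANTCA), the CCAAT box (CCAAT) and the cAMP response element (TGACGTCA) were in none of the 7 windows of the 6 genes, and in 6.63%, 7.71%, 34.6% and 1.85% of all windows. In the half-site R is A or G, W is A or T and Y is C or T. The motif of the antioxidant response element (TGACNNNGC) was in the POLH window and in the other REV3L window, and in 13.3% of all windows, and the E-box (CACGTG) was in those of REV1 and POLI, and in 7.26% of all windows. These matches describe the letters only.

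Each of the 6 genes overlaps annotated genes on the opposite strand, and whether counting used strand is not given in the sources used here, so reads in shared stretches are uncertain. MFSD4B shares 146327 bases of span with REV3L. It had 1894 counts over the UVB + sauchinone libraries and 1186 over the UVB libraries, and its log2 fold change was 0.60, opposite to REV3L (edgeR adjusted p = 4.64e-05). TRAF3IP2-AS1, which shares 257 bases with REV3L, was lower, like REV3L (-0.66, edgeR adjusted p = 0.0499), with 96 counts in UVB + sauchinone and 144 in UVB. A further gene sharing 4315 bases with REV3L did not pass (0.036, edgeR adjusted p = 0.95). POLH-AS1, which lies within POLH, had 167 counts in UVB + sauchinone and 91 in UVB, against 8646 and 8195 for POLH, and its log2 fold change was 0.79 (edgeR adjusted p = 0.021). POLH-AS1 no longer passed in 5 of the 18 alternatives, which were without UVB replicate 3 (0.58, edgeR adjusted p = 0.11), without UVB + sauchinone replicate 1 (edgeR adjusted p = 0.081) or 2 (edgeR adjusted p = 0.060), with the span trend removed (0.55, edgeR adjusted p = 0.10), and at a minimum fold change of 1.2 (edgeR adjusted p = 0.056). EIF5B, which shares 852 bases with REV1, had 12209 counts in UVB + sauchinone and 15478 in UVB, against 1602 and 1869 for REV1. Its log2 fold change was -0.42 (edgeR adjusted p = 0.0012). CERT1, which shares 383 bases with POLK, had 4551 and 5592 counts, against 2632 and 3467 for POLK (-0.37, edgeR adjusted p = 0.0020). GTPBP2, which shares 15208 bases with POLH, did not pass (0.038, edgeR adjusted p = 0.76). CAV3, which shares 66407 bases with RAD18, had 9 counts in UVB + sauchinone and 8 in UVB and was not tested. All of these overlapping genes were picked after their values were seen.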

How the data were processed

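RNA was sequenced in 3 UVB + sauchinone and 3 UVB libraries. Per the labels' protocols, libraries were paired-end and strand-specific, after poly(A) selection or removal of ribosomal RNA. The submitters' processing notes name the GRCh38 build. No aligner, counting program, annotation release or use of strand is stated there or in the labels. The authors deposited raw counts per gene, which were tested, and FPKM, which matched counts divided by exonic size and library total to within 0.005 and served for levels only.

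The test was run with edgeR 4.0.16 under R 4.3.3 (filterByExpr, TMM, quasi-likelihood test without covariates, two-sided, Benjamini-Hochberg adjustment over all 15704 genes, threshold 0.05). Fold changes are UVB + sauchinone over UVB. The SE is the log2 fold change over the root of F. Total counts of 20984851 to 23076388 gave a median SE of 0.12. Alternatives were DESeq2 1.42.0, limma-voom (limma 3.58.1), other factors and filters, a minimum fold change of 1.2, a replicate block, each library left out, and offsets removing lowess trends with span, exonic size or GC content (longest GENCODE release 29 transcript, 98.2% of genes tested). Named beside the 6 genes were the 6 largest changes in the damage tolerance list that passed, 6 partners, and the nearest pattern to each gene. The members, lists and motifs were chosen with earlier results of these data known.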

Additional observations from a re-analysis of the deposited data

How the results depend on the processing

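Over the 18 alternatives, REV3L, RAD18 and POLK kept their direction and their call, with log2 fold changes of -1.33 to -0.68, -0.97 to -0.37 and -0.60 to -0.18. POLI and REV1 kept their direction. Of the 6 genes, 3 passed with a minimum fold change of 1.2 (POLI at -0.46 and REV1 at -0.30 did not), 3 when the trend with exonic size was removed (POLI -0.31, REV1 -0.23) and 3 when the trend with GC content was removed (POLI -0.20, REV1 -0.17). With the trend with span removed REV1 was at -0.15. Leaving out a library gave 3 to 5 of the 6 genes, with -0.61 to -0.26 for POLI, -0.37 to -0.25 for REV1 and -0.042 to 0.028 for POLH. POLH, which passed in none of the alternatives, was at 0.043 without factors, 0.097 with the trend with exonic size removed and 0.031 with that of GC content removed. All genes called numbered 4980 with the minimum fold change, and genes of the damage tolerance list 10. Of the other 16 genes followed through the alternatives, signs turned for UBE2B (-0.11 and -0.056 with the trends with span and exonic size removed), POLD3 (0.33, span) and UBE2N (0.073, GC content). The cause of these changes was not tested. The replicate block gave 7280 calls and 5 of the 6 genes, and ended the call of MAD2L2 (0.36, adjusted p = 0.052). Over 9499 genes, deviations from the group mean correlated at r = 0.063, -0.26 and -0.0997 between libraries with replicate number 1, 2 and 3. Between libraries with different numbers r ran from -0.23 to 0.27. These values cannot decide whether the numbers pair the libraries, because each deviation is from a mean of only 3 libraries. Of the 6 genes, POLI had the fewest counts over the 6 libraries and the largest SE, 0.14.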
